A study of Homo sapiens with 2 samples.

Results

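Long noncoding RNAs are transcripts that act, where a function is known, without being translated. The genes described here are those whose symbol marks them as such: symbols starting with LINC or SNHG and a number, MIR-number-HG symbols, symbols ending in -AS1, and MALAT1, NEAT1, GAS5, OIP5-AS1 and KCNQ1OT1. Of 19775 genes named on the arrays 1581 have such a symbol, and the 187 of them with a probe set signal of at least 150 on either array were kept; they were thus chosen by their signals on these arrays. They are 113 antisense RNAs, 63 LINC genes, 7 host genes of small nucleolar RNAs, 3 host genes of microRNAs and MALAT1. Those signals are also the ones described, so all counts and medians over them are descriptions and support nothing by themselves.

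The RNA came from AGS, an established human gastric cancer cell line. One Affymetrix array held control cells and one held cells in which galectin-3 (the LGALS3 gene) had been silenced, by a small interfering RNA (siRNA) as that sample's description has it. The labels do not say what the control cells received, when the RNA was taken or how many silencing sequences were used. With 1 array per group there is no replicate, so no test was made, no p-value is given, and every ratio is a difference between these 2 arrays.

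Several of these RNAs have well-known roles. MALAT1 is a stable nuclear transcript of the speckles in which splicing factors are stored, and NEAT1 is the scaffold on which paraspeckles are built. SNHG genes and GAS5 carry small nucleolar RNAs in their introns; the spliced exons are often unstable, and several begin with the run of pyrimidines that also starts messenger RNAs for ribosomal proteins. MIR-number-HG genes give rise to microRNAs, and RNAs ending in -AS1 are read from the strand opposite a named gene, often from a shared promoter region.

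LGALS3 itself was lower in the silenced cells, as labelled. Its signal was 20206.3 in control cells and 2699.8 in silenced cells, which is 13.4% of the control. A background floor was taken from olfactory receptor probe sets and lay at 138.4 for control and 109.5 for silenced cells. Signals under it were raised to it, so a ratio with 1 side under the floor is a bound. All 5 epithelial markers on the array were above the floor, while 0 of 6 leukocyte and 0 of 3 neuron markers were. Of 6 fibroblast markers only COL1A1 was above it. The summed fibroblast markers read 1068 in control and 1665 in silenced cells, and their part in any result below was not tested.

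Among the 179 members with a ratio, 21 were higher in silenced cells by 2-fold or more (11.7%) and 3 lower by as much (1.68%). Over all 10514 genes measured the same shares were 3.31% higher and 3.07% lower. Over the 10038 genes that also reach 150 on a probe set they were 3.47% and 3.22%. JAKMIP2-AS1, HECW2-AS1, LINC00525, ITGB2-AS1, NRSN2-AS1 and LINC01234, counted as higher, reached 150 only on the silenced array. LOXL1-AS1 and LINC03011, counted as lower, reached it only on the control array. These genes are members only through the array on which they were high. The members' median log2 ratio (silenced minus control) was 0.26, beside -0.02 over all genes. A ratio above 0 was found in 124 members and one below 0 in 55, while 48.6% of all genes measured lay above 0 and 51.4% below. Of the genes that reach 150, 5024 lay above 0 and 5013 (49.9%) below.

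The counts past 2-fold and the medians moved with the scaling of the arrays, for members and for all genes alike. With the poly-A control probe sets set equal, 13 members were higher and 8 lower, so the higher ones made up 61.9% of those past 2-fold in place of 87.5%. That was 7.26% of members higher and 4.47% lower, beside 1.77% and 6.02% of all genes. The members' median was then 0.03 and that of all genes -0.25, and ratios between 0 and 0.23 changed sign. With the hybridization controls set equal 27 were higher (15.1%) and 3 lower (1.68%), beside 5.48% and 1.74% of all genes. The medians were then 0.45 over members and 0.17 over all genes. Relative to all genes the members' median was 0.28 under the deposited scaling and under both of these other scalings. Each of the 2 shifts every ratio by the same constant, so this difference could not change and tests nothing. The choice of floor mattered as well: with a floor 2 times higher, 9 members of 107 with a ratio were higher and 2 lower. These were 8.41% and 1.87% of members, beside 2.81% and 2.74% of all genes. That floor took LINC03011 and 12 higher members under 2-fold: DSP-AS1, ERCC6L2-AS1, HECW2-AS1, ITGB2-AS1, LINC00467, LINC00525, LINC00648, LINC01234, NRSN2-AS1, RALY-AS1, RARA-AS1 and ZNF232-AS1.

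Members were mostly weakly detected, which limits their ratios. The median of their highest signals was 295.6, and 95 of the 187 stayed under 300 on both arrays. Of the 179 with a ratio, 136 were above the floor on both arrays, 33 only on the silenced array (18.4%) and 9 only on the control array (5.03%). Over all genes these shares were 4.05% and 1.49%. The remaining 1, LINC01770, had a bound with no direction. Because the floor of the control array is the higher one, the 33 and the 9 are not counted on equal terms. Among the 136, 16 were at least 2-fold higher (11.8%) and 2 lower (1.47%), with a median log2 ratio of 0.24. Of all 9579 genes above both floors 3.17% were higher and 3.13% lower; their median was -0.012.

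The shares were also set out by signal. Between mean signals of 256 and 1024, 13 of 70 members above the floor on both arrays were at least 2-fold higher (18.6%), beside 4.49% of 3607 genes there. Between 128 and 256 it was 1 of 53 members (1.89%), beside 14 of 935 genes. Above 1024 it was 2 of 13 members (15.4%), beside 2.54% of 5033 genes. RefSeq calls 117 other genes that reach 150 lncRNA, and the rule does not take their names. Of these, 5 were higher (4.27%) and 3 lower (2.56%), beside 3.47% and 3.22% of all genes that reach 150. The median of the 117 was 0.13. No test sets the members apart from these genes.

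**Figure D1:**
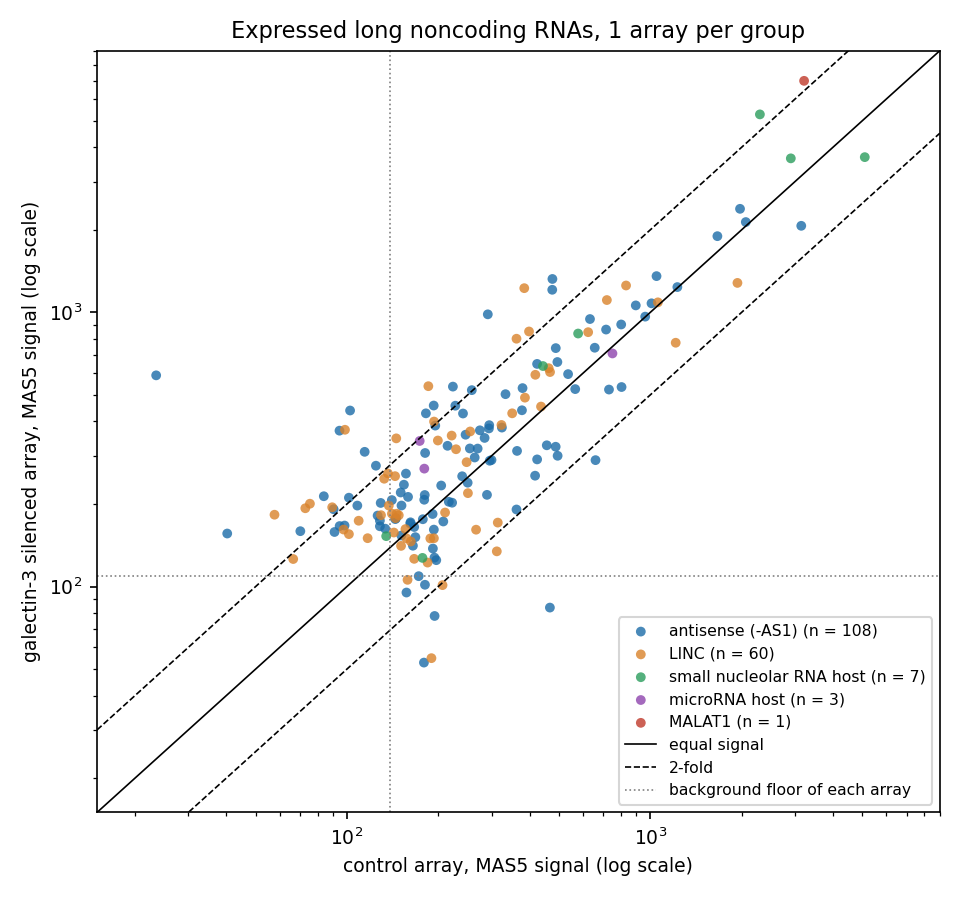
MAS5 signal of the 179 members with a ratio in control cells (x axis, log scale) and in galectin-3 silenced cells (y axis, log scale), 1 point per gene, coloured by name group. Dashed lines mark 2-fold and dotted lines the floor of each array, 138.4 and 109.5; 21 genes lie past 2-fold above the diagonal and 3 below it once signals are raised to the floor.

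The host genes of small nucleolar RNAs are shown first by the bases around their start, since an oligopyrimidine start is what this class is known for. Each line gives 15 bases before and 15 from the first transcribed base, from the RefSeq promoter table (GRCh38.p14). Capitals mark an unbroken run of C and T that begins with C at the first base and is at least 5 long, as far as it falls in the 15 bases.
SNHG32: ctcgccattttagttCTTTTTgcgaagtgg
SNHG19: ctcgcccgcccctgtCTTTTCggggtcgag
SNHG18: ccgccgccgcgccgcCTCCTCCTCCTCCTC
SNHG4: ctcggctcccggctgCCCTTTCCCCTCCgg
SNHG17: ttgtcgtgtggcctcagtccttcgccgtcc
These stretches lie at chr6:31834901-31834930 (plus strand), chr16:2155344-2155373 (minus), chr5:9546185-9546214 (plus), chr5:139274086-139274115 (plus) and chr20:38435314-38435343 (minus). Such a start was found in 4 of the 7 hosts, SNHG32, SNHG19, SNHG18 and SNHG4, beside 4.07% of all 35116 promoter windows. GAS5, SNHG33 and SNHG17 showed none at the start RefSeq lists, which says only that these letters are not at that base.

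Of the 7 small nucleolar RNA hosts, 1 was at least 2-fold higher (14.3%) and 0 were lower, beside 3.31% and 3.07% of all genes measured. A ratio above 0 was found in 5 (71.4%), beside 48.6% of all genes, and the hosts' median log2 ratio was 0.33. SNHG32 went from 2298 in control cells to 5273.9 after silencing, 2.29-fold higher. It is the one host past 2-fold, and it fell just short with the poly-A controls set equal, at a log2 ratio of 0.96. SNHG33 went from 578.2 to 837.2 and SNHG18 from 442.7 to 637.2, both at a log2 ratio of 0.53. SNHG19 read 2905.8 in the control and 3645.6 after silencing, 1.25-fold higher.

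The other hosts were lower or too weak to read. SNHG17 went from 5094.3 to 3683, 1.38-fold lower, and its second probe set went the same way, from 3993.7 to 3222.6. SNHG4 went from 177.4 to 127.2. GAS5, the growth arrest RNA, has 1 probe set under its own symbol, with 134.7 and 152.7, a bound of 1.10-fold higher whose sign turned with the poly-A controls set equal (log2 ratio -0.09). The hosts with an oligopyrimidine start had log2 ratios of 1.20, 0.33, 0.53 and -0.48, so they did not share a direction.

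Many host genes are read by probe sets that the platform lists under the host together with the small RNAs it carries. Such probe sets name no gene by themselves and are not among the 187, so their values are given as those of the listing, and were chosen after being seen. In all 130 probe sets carry a fitting symbol and another symbol, 63 of them reach 150, and 34 of those list 1 fitting symbol with small RNA genes alone. These 34 cover 21 symbols. By 2-fold or more 4 were higher, 3 listed under NEAT1 and 1 under MIR22HG, and 0 lower, with a median log2 ratio of 0.16. Among all genes measured, counted by gene, 3.31% were higher and 3.07% lower by as much, with a median of -0.02. At such a share 34 probe sets can readily hold 0 lower.

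The 4 joint probe sets listed under GAS5 and its small nucleolar RNAs disagreed. One went from 8169.4 to 12959.2 and one from 7698.4 to 12250.4, both 1.59-fold higher and both of the cross-hybridising _x_at kind. The remaining pair went from 6534.5 to 5114.1 and from 2808.4 to 2553.2, which is 1.28-fold and 1.10-fold lower. No single direction can therefore be given for that listing.

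Probe sets listed under other hosts also went both ways. The listing of SNHG8 went from 5827.7 to 8324.7, that of SNHG6 from 8170.6 to 10276.9 and that of SNHG5 from 4630.2 to 5570.9. The listing of SNHG1 went from 7379.2 to 5064.3, and both probe sets of the SNHG16 listing were lower, 6176.6 against 4954.3 and 4789.7 against 3491.4. All of these stayed within 2-fold. SNHG12, with 3 joint probe sets, kept to log2 ratios between 0.06 and 0.22.

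MicroRNA hosts are shown with the mature microRNAs that RefSeq places in the gene of the same number. The arrays read the host transcripts, not the microRNAs. RefSeq (GRCh38.p14) puts miR-31-5p at chr9:21512158-21512178 (minus strand), miR-570-3p at chr3:195699460-195699481 (plus) and miR-1915-3p at chr10:21496576-21496595 (minus). Seeds, bases 2 to 8, are in capitals.
hsa-miR-31-5p: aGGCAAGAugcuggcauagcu
hsa-miR-570-3p: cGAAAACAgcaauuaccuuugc
hsa-miR-1915-3p: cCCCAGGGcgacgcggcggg
hsa-miR-22-3p: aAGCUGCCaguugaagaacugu
hsa-miR-17-5p: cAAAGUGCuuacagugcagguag
hsa-miR-20a-5p: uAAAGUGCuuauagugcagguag
hsa-miR-19a-3p: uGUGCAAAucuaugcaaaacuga
hsa-miR-19b-3p: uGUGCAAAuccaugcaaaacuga
hsa-miR-92a-3p: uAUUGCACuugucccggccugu
The 3 microRNAs shown for the member hosts have different seeds. In the MIR17HG cluster miR-17-5p and miR-20a-5p share one seed, and miR-19a-3p and miR-19b-3p another.

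None of the 3 microRNA hosts among the members reached 2-fold. MIR31HG was nearly level, with 750.3 and 708.3. MIR570HG went from 179.9 to 269.2. MIR1915HG went from 173.7 to 339.6 on the probe set that stands for it, 1.96-fold higher, but a second probe set went from 206.8 to 111.6, so its direction is not settled. The 3 had a median log2 ratio of 0.58, which was -0.040 with a floor 2 times higher and 0.039 when a gene took the median over its probe sets.

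The probe set listed jointly under MIR22HG and MIR22 read 651.2 in control and 1679.7 in silenced cells, 2.58-fold higher. The one listed under MIR17HG and the 6 microRNA genes of its cluster went from 466.6 to 618.8, 1.33-fold higher. MiR-17 family members are known as growth-promoting microRNAs; whether any microRNA itself differed was not measured.

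MALAT1 was higher on every one of its 12 probe sets. The probe set that stands for it went from 3214 in control cells to 6990.7 after silencing, 2.18-fold higher, with a log2 ratio of 1.12. Before any floor the 12 probe sets ran from 0.41 to 1.47 with a median of 1.05, and 7 were past 2-fold. Among the 7, 1, with 63.9 and 131.0, was under the control floor. Most of them are of the _s_at or _x_at kind, which can read several transcripts. The single probe set of the specific kind went from 657.8 to 925.6, a log2 ratio of 0.49, so the direction holds on it but the 2-fold size does not. With the poly-A controls set equal MALAT1 stood at 0.89, and as the median over its probe sets, after the floor, at 0.998.

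NEAT1 has 0 probe sets under its own symbol and is no member, but 9 probe sets are listed under NEAT1 and MIR612, 6 of which reach 150. They fell into 2 sets with opposite directions. One set went from 1947.3 to 6693.9, from 1899.4 to 6466.9 and from 219.7 to 812.4, between 3.40-fold and 3.70-fold higher. The other set went from 856.8 to 542.6, from 198.3 to 102.3 and from 176.3 to 104.1, which is 1.58-fold lower for the first. The silenced signals of the others, 102.3 and 104.1, were under that array's floor, so those ratios are bounds of at least 1.81-fold and 1.61-fold lower. NEAT1 is known to be made in a short and a long form that share their beginning; which form each probe set reads was not determined here. KCNQ1OT1, an imprinted antisense RNA, stayed at 86.7 or less on its 5 probe sets and is not a member.

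**Figure D2:**
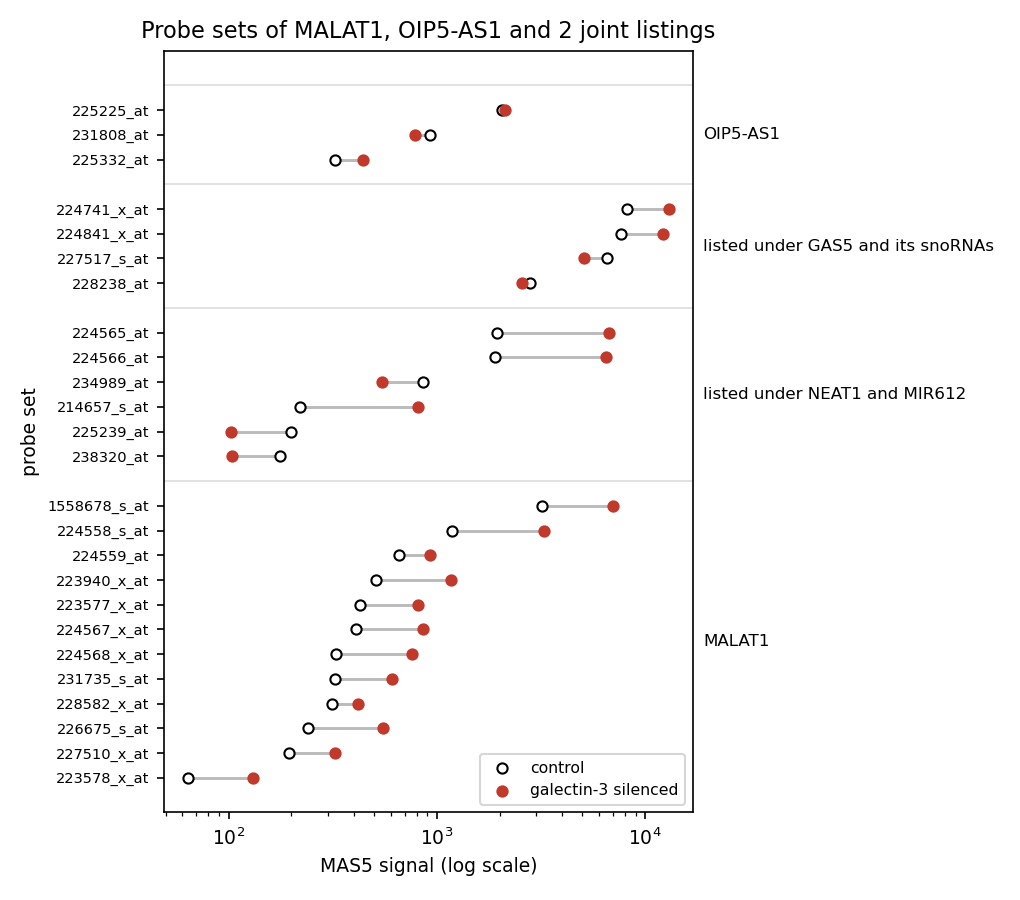
MAS5 signal (x axis, log scale) of each probe set (y axis, by identifier) in control cells (open points) and galectin-3 silenced cells (red points), for MALAT1, OIP5-AS1 and the joint listings of NEAT1 and GAS5 that reach 150. All 12 MALAT1 probe sets are higher on the silenced array, while the 6 NEAT1 and the 4 GAS5 probe sets go both ways.

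The promoter windows of 3 members past 2-fold are shown because each stands for one of the groups described: MALAT1, the host SNHG32 and the antisense RNA GATA6-AS1. Each holds 250 bases before the start in lower case and the first 50 transcribed bases in capitals, from the RefSeq table (GRCh38.p14). MALAT1 has 2 windows there, and the downstream one is given.
MALAT1, chr11:65498795-65499094, plus strand: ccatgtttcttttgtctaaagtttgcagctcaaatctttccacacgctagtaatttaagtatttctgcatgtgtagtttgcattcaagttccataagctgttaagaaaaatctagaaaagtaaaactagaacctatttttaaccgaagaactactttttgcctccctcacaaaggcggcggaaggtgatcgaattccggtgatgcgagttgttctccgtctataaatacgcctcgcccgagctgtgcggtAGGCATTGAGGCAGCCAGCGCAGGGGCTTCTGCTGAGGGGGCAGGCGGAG
SNHG32, chr6:31834666-31834965, plus strand: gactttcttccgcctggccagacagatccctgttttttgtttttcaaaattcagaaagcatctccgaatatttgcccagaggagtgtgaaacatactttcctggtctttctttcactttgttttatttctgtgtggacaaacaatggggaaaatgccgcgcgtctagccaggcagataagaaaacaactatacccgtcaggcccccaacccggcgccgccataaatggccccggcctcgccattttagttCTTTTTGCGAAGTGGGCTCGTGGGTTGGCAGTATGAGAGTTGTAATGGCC
GATA6-AS1, chr18:22168919-22169218, minus strand: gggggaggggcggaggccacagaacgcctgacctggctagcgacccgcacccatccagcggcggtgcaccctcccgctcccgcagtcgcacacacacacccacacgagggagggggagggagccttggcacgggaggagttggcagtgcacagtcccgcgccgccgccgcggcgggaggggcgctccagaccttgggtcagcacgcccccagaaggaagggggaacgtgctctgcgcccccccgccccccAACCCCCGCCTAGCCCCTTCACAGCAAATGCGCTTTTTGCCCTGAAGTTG

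These windows were searched on both strands for motifs of growth and interferon control, and 147 members have a window, 178 windows in all. The CHR element TTTGAA, known from cell-cycle genes, was in 14 member windows (7.87%), beside 15.2% of all windows. The CCAAT box CCAAT was in 69 (38.8%), beside 34.6%, and the E-box CACGTG in 15 (8.43%), beside 7.26%. The E2F site, TTTGGCGC or TTTCGCGC, was in 4 (2.25%), beside 1.15%, and the interferon element, GAAA repeated after any 2 bases, in 5 (2.81%), beside 3.57%. In the 18 windows of higher members the interferon element was found in LINC00623 alone. Of the 3 windows printed, that of SNHG32 holds the CHR element and the others hold none of these motifs.

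Antisense RNAs make up most of the members. Of 108 with a ratio, 12 were at least 2-fold higher (11.1%) and 2 lower (1.85%), beside 3.31% and 3.07% of all genes measured. Their median log2 ratio was 0.23, and it was -0.0027 with the poly-A controls set equal. The highest ratio was that of JAKMIP2-AS1, which read 23.5 in control cells, far under the floor, and 589.3 after silencing. Against the floor it was at least 4.26-fold higher. KLRK1-AS1, named after the gene of a natural killer cell receptor, went from 291.3 to 983.7, 3.38-fold higher. Each has 1 probe set, so no other probe set repeats them.

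A further 7 antisense RNAs were past 2-fold and above the floor on both arrays. GATA6-AS1, beside the gene of the endoderm factor GATA6, went from 475.7 to 1323.9, 2.78-fold higher. SERTAD4-AS1 went from 475.1 to 1209, 2.54-fold higher, and DSP-AS1, opposite the desmosome gene DSP, from 193.2 to 457.3, 2.37-fold higher. RALY-AS1 went from 223.5 to 536.1, 2.40-fold higher, and ERCC6L2-AS1 from 182.1 to 428.3, 2.35-fold higher. RARA-AS1, from 227.7 to 456.7, and ZNF232-AS1, from 258 to 520.4, just passed at 2.01-fold and 2.02-fold, and of the 9 settings tried RARA-AS1 lost its call in 4 and ZNF232-AS1 in 5.

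Bounds account for the rest of the higher ones. ITGB2-AS1 went from 102.4 to 438.6, at least 3.17-fold higher, and HECW2-AS1 from 94.5 to 370.3, at least 2.68-fold higher. NRSN2-AS1 went from 114.4 to 310, at least 2.24-fold higher, under 2-fold also with the poly-A controls set equal (log2 ratio 0.93). TMEM44-AS1, with 124.6 and 275.9, stopped just short at a bound of 1.99-fold. These control signals are all under the floor, so how far each gene truly moved is not known from these arrays.

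The lower antisense RNAs were fewer. LOXL1-AS1, opposite a gene of collagen and elastin crosslinking, went from 466.7 to 83.8, at least 4.26-fold lower. HLA-F-AS1, at a gene of the MHC class I family, went from 659.9 to 289.1, 2.28-fold lower. WARS2-AS1 went from 362.2 to 191, a log2 ratio of -0.92, and TMPO-AS1 from 179.4 to 52.8, a bound of -0.71. Among antisense RNAs with larger signals, OIP5-AS1, which is known to bind a microRNA, was nearly level with 2064.9 and 2135, and its other probe sets went from 325.3 to 439.8 and from 926.9 to 787.1. FGD5-AS1 went from 3145.6 to 2068.9, 1.52-fold lower, EPB41L4A-AS1 from 1976.2 to 2386.1 and PSMA3-AS1 from 1048.5 to 1355.9.

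**Figure D3:**
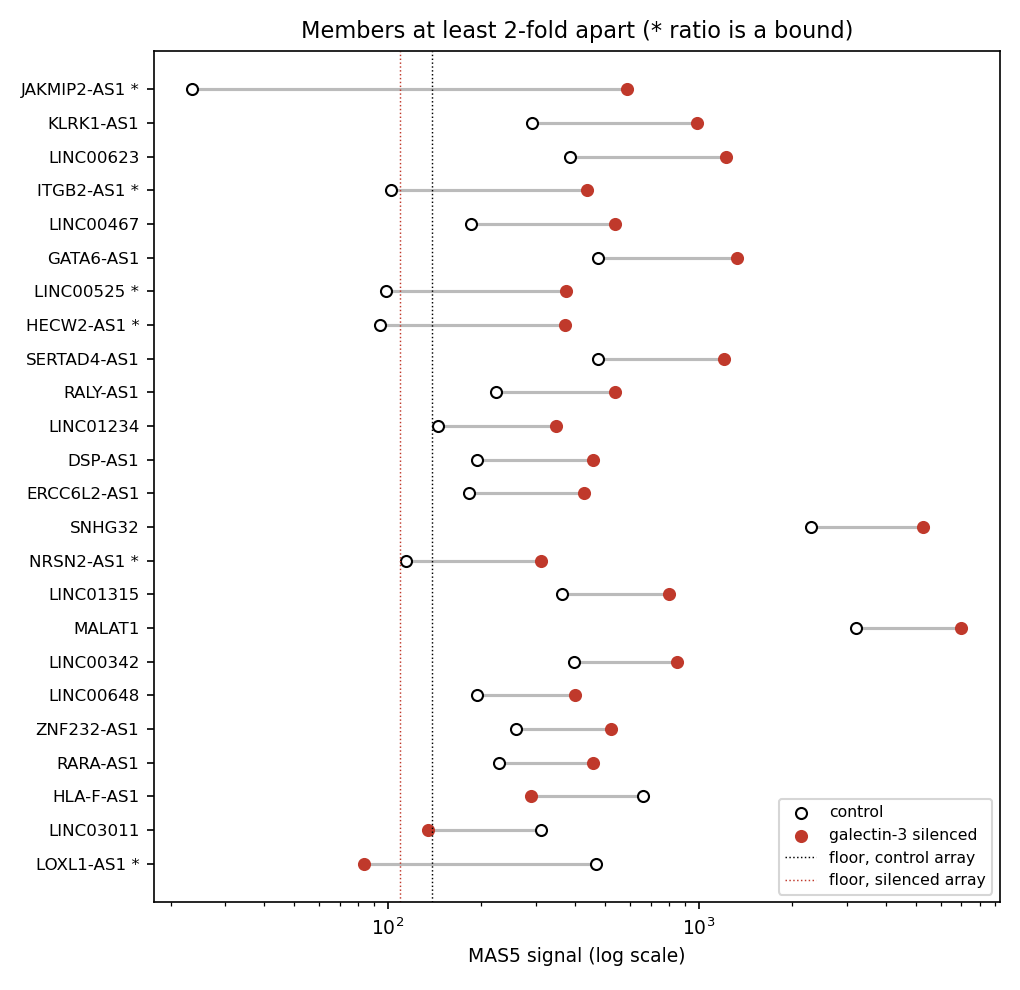
MAS5 signal (x axis, log scale) of the 24 members at least 2-fold apart in control cells (open points) and galectin-3 silenced cells (red points), ordered by log2 ratio, with the floor of each array as dotted lines. An asterisk marks a ratio that is a bound because 1 signal is under the floor; 21 genes are higher on the silenced array and 3 lower.

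An antisense RNA can be set against the gene it is named after. Both had a ratio in 76 pairs, and both were above the floor on both arrays in 57. Of the 57 pairs 30 had the same sign, and in 0 pairs were both members past 2-fold the same way. The correlation of the log2 ratios across these 57 pairs was r = 0.10 (Spearman 0.12), a description over pairs that share the same 2 arrays. In these pairs 7 antisense RNAs and 1 sense gene were at least 2-fold higher. Among all genes measured 3.31% were higher and 3.07% lower by as much, so few sense genes could pass.

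The pairs were also split by the distance of their starts. In 32 of the 57 pairs RefSeq lists opposite starts within 1000 bases, and there 19 had the same sign, with r = -0.02 (Spearman 0.12). In 12 pairs the starts lay further apart, and 4 had the same sign. Of the 12 higher antisense RNAs, 7 have a sense gene with a ratio, and in 0 of the 7 was that gene past 2-fold. With 3.31% of all genes measured higher and 3.07% lower by as much, 7 genes can readily hold none. For 4 others the sense gene stayed under both floors, and KLRK1 has no probe set under its symbol alone.

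Single pairs are given by their values. GATA6 had signals of 5649.8 and 5927.1, nearly level beside the 2.78-fold of GATA6-AS1, whose start lies 621 bases away on the other strand. DSP went from 17425.6 to 19940 and RALY from 1966.2 to 1850.1. SERTAD4 went from 374.9 to 653.8, a log2 ratio of 0.80 beside 1.35 for SERTAD4-AS1. ERCC6L2 was lower, from 587 to 353.1, where ERCC6L2-AS1 was higher. OIP5, a centromere protein gene, went from 2338.1 to 741.2, 3.15-fold lower, where OIP5-AS1 was nearly level. ITGB8, an integrin subunit, went from 255.3 to 1336.8, 5.24-fold higher, where ITGB8-AS1 read 144.3 and 176.2. TMPO, a protein of the nuclear lamina, went from 10595 to 5926 and TMPO-AS1 was lower too. Whether each probe set reads the strand its symbol names was not checked here.

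**Figure D4:**
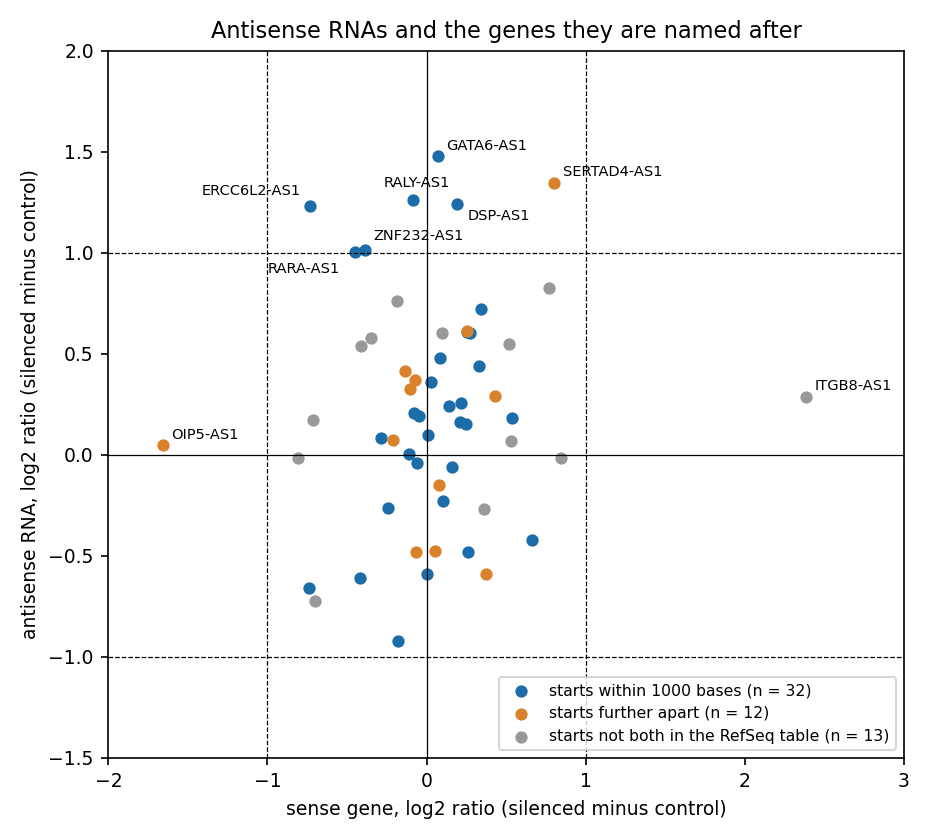
Log2 ratio (silenced minus control) of the sense gene (x axis) and of the antisense RNA named after it (y axis) for the 57 pairs in which both were above the floor on both arrays, coloured by the distance of their RefSeq starts. Dashed lines mark 2-fold; 7 antisense RNAs lie above the upper line, and in 0 pairs did both genes pass 2-fold the same way.

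Of 60 LINC genes with a ratio, 7 were at least 2-fold higher (11.7%) and 1 lower (1.67%), beside 3.31% and 3.07% of all genes measured. The LINC genes had a median log2 ratio of 0.31. Most have no known function in this tissue, so they are given by their values. LINC00467 went from 185.5 to 538, 2.90-fold higher. Its second probe set went from 100.8, under the control floor, to 510.4, so that ratio is a bound. LINC01315 went from 362.2 to 801.5, 2.21-fold higher (log2 ratio 0.91 with the poly-A controls set equal), and LINC01234 from 145.4 to 347.1, 2.39-fold higher. LINC00525 went from 98.5 to 373.1, at least 2.70-fold higher. LINC00648 went from 193.7 to 399.7, 2.06-fold higher, and was under 2-fold in 3 of the 9 settings tried.

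LINC00623 and LINC00342 need more care. The probe sets of LINC00623 can read more than 1 gene, and those of LINC00342 differ in the size of the ratio. LINC00623 went from 384.2 to 1225.4, 3.19-fold higher, on a single _x_at probe set. Joint probe sets listed under LINC00623 with near copies went from 486.4 to 1275.4 and from 655.1 to 1620.6. Of these copies LINC00869 read 155.9 and 162 on the probe set that stands for it and 112.8 and 192.4 on another, whose control signal is under the floor. LINC01138 read 89.4 and 194.6, also from under the floor. Which copy carries the difference is uncertain. LINC00342 went from 398.3 to 851.8, 2.14-fold higher, while its other probe sets went from 273.1 to 441 and from 289.1 to 343.5. As the median over its probe sets its log2 ratio was 0.69, and with the poly-A controls set equal 0.86.

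The LINC gene past 2-fold in the other direction was LINC03011, from 311.9 to 134.4, 2.32-fold lower; with 50 added to each signal its log2 ratio was -0.97. LINC00957 went from 314.2 to 171.1 and LINC02381 from 1937.8 to 1280.8, both within 2-fold. LINC00205, which has 5 probe sets above both floors, was higher on all of them, from 832 to 1253.3 on the one that stands for it. LINC00938 went from 719.2 to 1109.1 and LINC01806 from 624 to 846.8. LINC01003 was level, with 1059.3 and 1087.9.

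Repeat probe sets give the only check on single ratios. Of the 187 members 100 have 1 probe set. In 21 members 2 or more probe sets were above both floors, and in 12 of these all went one way. The other 9 went both ways: CKMT2-AS1, EPB41L4A-AS1, GABPB1-AS1, LINC00665, MAPKAPK5-AS1, MIR1915HG, OIP5-AS1, PSMA3-AS1 and PSMB8-AS1. Among the members at least 2-fold higher, only 2, MALAT1 and LINC00342, had 2 or more such probe sets, each all one way. The other higher members have no such check. Within a gene, log2 ratios of different probe sets had an SD of 0.45 over the 21 members and 0.32 over 4728 genes, which is spread on the same RNA and not between cultures.

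Of the 8 members with no ratio, C1RL-AS1, DHX9-AS1, LINC00475, LINC01000, LINC02352, MELTF-AS1, TNFRSF14-AS1 and TNRC6C-AS1, each reached 150 on an _x_at probe set only, and the probe set that stands for the gene was under the floor. LINC02256 at 150.1, LINC02551 at 150.8 and GAS5 at 152.7 lay just inside the threshold. CLCA4-AS1 at 149.6, SLC25A5-AS1 at 147.7 and LINC01260 at 147.4 lay just outside it, and their ratios were bounds of 1.07-fold to 1.08-fold higher.

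Genes of the proteins that work with these RNAs stayed within 2-fold, in short lists. Over all genes measured 3.31% were higher and 3.07% lower by as much, so lists of this length can readily hold none. Of 14 paraspeckle proteins measured 0 passed 2-fold in either direction, with a median log2 ratio of -0.15. DAZAP1 was at -0.91 and RBM14, which bridges paraspeckle parts, at -0.66, while the NEAT1 partners NONO and SFPQ were at 0.12 and -0.33. Of 8 splicing factors that bind MALAT1 0 passed, with a median of -0.17. SRSF7 was at 0.82 and SRSF1 at -0.71. Another probe set reached 13613 for SRSF7 and 4637.7 for DAZAP1, above the ones used here, and its ratio is not given. Of 9 small nucleolar RNP proteins 0 passed, and all 9 lay below 0 under the deposited scaling, beside 51.4% of all genes measured. Their median was -0.25. That shared sign depends on the scaling, since the hybridization controls had a median log2 ratio of -0.181. Setting those equal puts SNU13 (-0.095), NOP10 (-0.115), NOP58 (-0.152) and NAF1 (-0.176) above 0. The methyltransferase FBL, of box C/D particles, was at -0.45, with signals of 20420.3 and 14982.7, SHQ1 was at -0.51 and GAR1, of box H/ACA particles, at -0.51.

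The same held, with the same limit of short lists, for decay and microRNA processing. Of 7 nonsense-mediated decay factors measured 0 passed, with a median of -0.07, and SMG9 at -0.47 and UPF2 at 0.33 were farthest from 0. Another SMG9 probe set reached 856.6, above the one used here. Of 11 microRNA processing genes 0 passed, with a median of -0.07, and TNRC6A at 0.42 and PRKRA at -0.29 were farthest.

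Well-known long noncoding RNAs whose names the rule does not take had no common direction. Of 15 with a ratio, 1 was at least 2-fold higher and 2 lower, with a median of 0.00. Over all genes measured 3.31% were higher and 3.07% lower by as much. CRNDE, an RNA raised in colorectal tumours, went from 1628.2 to 3939, 2.42-fold higher. UCA1, first described in bladder cancer, went from 5640.7 to 2168.2, 2.60-fold lower, and DLEU2, the host of the miR-15a and miR-16 genes, from 325.3 to 135.3, 2.40-fold lower. The snoRNA hosts ZFAS1 and DANCR were at 0.35 and -0.53, and NORAD was level at 14677.1 and 14661.7. Other probe sets of DLEU2 and ZFAS1 reached 903.4 and 20525.7, above the ones used here, and their ratios are not given.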

How the data were processed

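The 2 one-colour arrays carry 54675 probe sets. Total RNA was labelled with biotin. Each deposited value is a linear intensity (MAS5 signal), and MAS5 is the tool the submitters' processing notes name, without version, scaling target or filters. Both arrays had a 2% trimmed mean of 500.07, so the deposited scaling was kept. A change in total RNA per cell cannot be seen after such scaling.

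Probe sets were named from the platform annotation: 41097 carry 1 symbol, 1801 several and 11777 none. By symbol or gene identifier, 185 members were found in RefSeq (GRCh38.p14), 184 as lncRNA. The floor was the 95th percentile of 135 olfactory receptor probe sets on each array. The probe set with the largest mean log2 signal stood for a gene, leaving out the _x_at kind where another existed. Ratios are log2 values of silenced minus control, and 2-fold was the rule of size. Depth has no meaning for arrays; their number limits precision.

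Members and lists were chosen with earlier results of these data known. All members could be named; other genes named are list members past 2-fold or with large ratios, sense genes, and some chosen after their values were seen. Alternatives covered scaling, floor, offset, probe set choice and the 150 threshold. The procedure was tested on simulated data in which only well-detected genes above both floors were given changes. How it recovers changes in weakly detected genes, as most members are, was not tested. Python 3.11.15, pandas 2.3.3 and statsmodels 0.14.6 were used.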

Additional observations from a re-analysis of the deposited data

How the results depend on the processing

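Over 10 alternatives the number of members at least 2-fold higher (21) stayed within 1.5 times except after equating the poly-A controls (13), with a floor 2 times higher (9) and with no floor (33). The number lower (3) did so except after equating the poly-A controls (8) and with no floor (7). At the threshold of 300 the counts stayed at 21 and 3, over 90 members in place of 179. A gene counted as higher must lie at least 2-fold above the control floor, so its count could hardly change there. A higher floor leaves fewer members with a ratio (107), and no floor lets ratios of background signals count: 12.5% of all genes were then higher and 12.4% lower. The microRNA host median of 0.58, over 3 genes, was -0.040 with a floor 2 times higher and 0.039 when a gene took the median over its probe sets; the cause was not tested. The members' median ran from 0.03 to 0.45. Medians of the other groups stayed above 0, apart from that of antisense RNAs after equating the poly-A controls (-0.0027). Past 2-fold in every alternative that gave them a value were GATA6-AS1, JAKMIP2-AS1, KLRK1-AS1, LINC00623, SERTAD4-AS1, HLA-F-AS1 and LOXL1-AS1. Of 300 values of single members under alternatives 25 moved by more than the spread between probe sets, and 0 members past 2-fold changed sign. No paired analysis was possible because each group has 1 array, and for the same reason no array could be left out. Signal over background limits most members, since 95 of 187 stayed under 300.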
